A study of Homo sapiens with 4 samples.

Results

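Vimentin (VIM), galectin-1 (LGALS1), the collagen chain COL1A2 and zyxin (ZYX) were lower in K562 cells carrying a hairpin against PHF8 than in cells carrying a control hairpin, and for vimentin the transcript credited with most of the RNA also differed between the groups. These 4 genes, of 11213 gene names in the deposited table, were taken by name, and their 9 transcripts, of 32551, were summed per gene. They had been picked because their TPM (a length-corrected share of each library, scaled to the same total) differed between these same libraries. Their gene and transcript levels are therefore given as a description, without a test.

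Vimentin, the collagen chain and zyxin belong to the mechanical apparatus of mesenchymal and migrating cells. Vimentin is an intermediate filament protein of mesenchymal cells and leukocytes, and its filaments carry load and position organelles. Galectin-1 is a small lectin that binds galactose-containing glycans inside and outside the cell. COL1A2 encodes the alpha 2 chain of type I collagen, which assembles with chains from COL1A1 into the fibrils of skin, bone and tendon. Zyxin is a LIM-domain protein of focal adhesions and stress fibres that recruits Ena/VASP proteins, which promote actin assembly. K562 is an established human chronic myelogenous leukaemia line with erythroid features, and it grows in suspension.

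All cells received lentivirus with polybrene at 5 µg/ml and were placed under puromycin at 2 µg/ml after 72 h. The 2 shControl libraries are labelled WT in genotype and the 2 shPHF8 libraries PHF8 knockdown, where PHF8 is a histone lysine demethylase. The labels name a single hairpin, shPHF8-1, in the protocol but number the knockdown libraries 1 and 2, so they do not settle whether those numbers are replicates or hairpins. Separate cultures are not stated for the libraries, so any p-value here measures only the spread between these samples, which may be technical.

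PHF8 itself stood at 25.9 and 22.5 TPM in the shControl libraries and at 6.06 and 6.42 TPM in the shPHF8 libraries. Over the 10972 genes tested, limma with Benjamini-Hochberg adjustment called 0 genes (0%) higher and 0 genes (0%) lower, the lowest adjusted p being 0.0554. PHF8, the target of the hairpin, was thus itself not called, so a gene that is not called may still differ. Without adjustment, 1086 genes (9.90%) were higher and 1328 (12.1%) lower at a limma p under 0.05. All 15 erythroid and K562 identity genes checked were listed, including GATA1 at 307 to 343 TPM, so the libraries carry the markers of the labelled line. Of 13 fibroblast markers the table lists 3, and their summed level was 7.34 and 9.55 TPM in shControl and 6.50 and 2.84 TPM in shPHF8. Of 9 endothelial markers the table lists 0. CD3D, a T-cell marker, stood at 29.6 and 31.5 TPM in shControl and at 14.9 and 10.96 TPM in shPHF8. Of 14 granulocyte and monocyte markers the table lists 6, whose summed level was 152 and 173 TPM in shControl and 84.9 and 81.4 TPM in shPHF8. All 6 were lower in both shPHF8 libraries, against 29.3% of all genes, with a median log2 difference of -1.17. The summed level of the erythroid genes was 10701 and 11532 TPM in shControl and 16951 and 16180 TPM in shPHF8. Globins weigh most in that sum, HBG1 alone at 2871 and 2960 TPM in shControl and 4833 and 4524 TPM in shPHF8. Of the 15 genes, 10 were higher and 2 lower in both shPHF8 libraries, against 26.0% and 29.3% of all genes. GATA1 was lower, at 339 and 343 TPM in shControl and 311 and 307 TPM in shPHF8. NFE2 was also lower, at 173 and 196 TPM in shControl and 162 and 149 TPM in shPHF8. These shifts run alongside the lower levels of the 4 genes, and their part in those levels was not tested. In bulk RNA, fewer cells of a kind and less RNA per cell cannot be told apart.

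Summed over its transcripts, VIM (ENSG00000026025) stood at 498 and 487 TPM in the shControl libraries and at 299 and 303 TPM in the shPHF8 libraries. Both knockdown libraries lay below both controls, by 184 TPM at the closest, and values within a group were nearly equal. The means were 492 ± 7.32 and 301 ± 2.86 TPM (SD, n = 2), so the knockdown level was 61.2% of the control level and the difference in log2(TPM + 1) was -0.71. All 4 genes were lower in both shPHF8 libraries than in both shControl libraries. That holds for 29.3% of all genes tested, while 26.0% were higher in both, and since the genes were chosen on this comparison the count carries no further weight. The plot of TPM by library shows the 4 separations side by side.

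**Figure D1:**
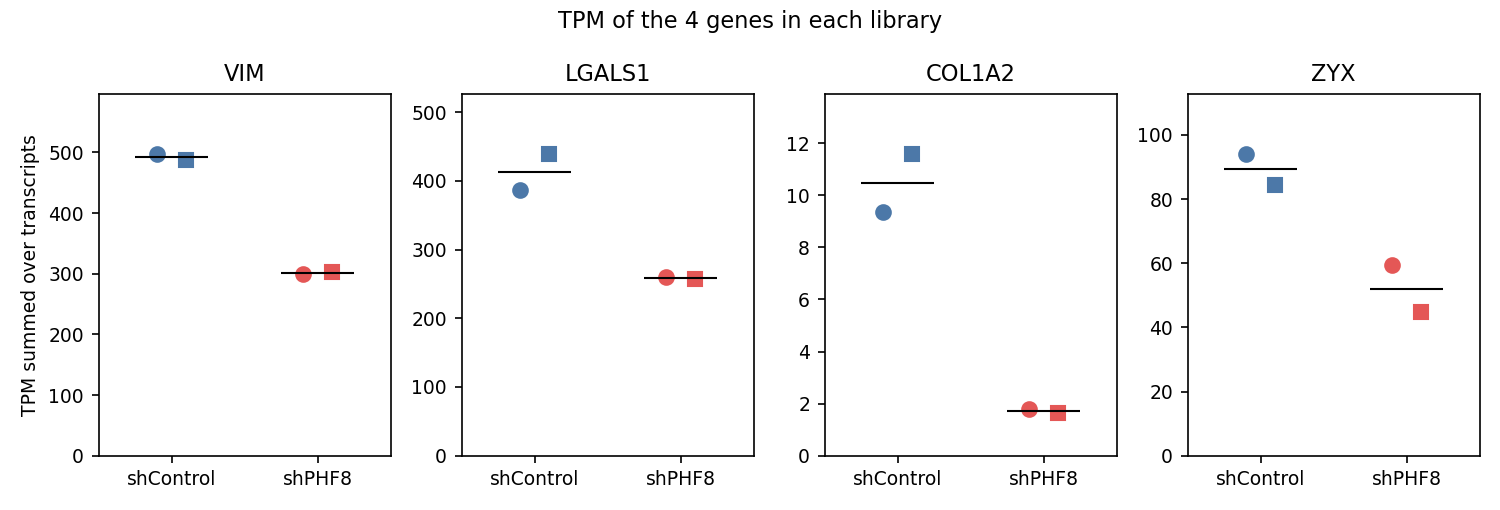
Each panel shows the TPM of 1 gene, summed over its transcripts, on a linear axis from 0. Points are libraries (circles replicate 1, squares replicate 2; blue shControl, red shPHF8) and lines are group means; no knockdown point reaches a control point in any panel, and COL1A2 shows the widest relative gap.

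In the deposited transcript values, the single VIM total hides an exchange between 2 transcripts. Reads were not examined here, so RNA joining the exon that sets them apart was not checked. The transcript ENST00000224237 held nearly all VIM in the controls, at 496 and 477 TPM, and stood at 56.1 and 21.9 TPM in the knockdown libraries. The transcript ENST00000544301 was listed at 0 in both controls and stood at 239 and 280 TPM in the knockdown libraries. As a share of VIM, ENST00000544301 took 79.8% and 92.4% in the knockdown libraries, and ENST00000224237 took 99.7% and 97.8% in the controls. The remaining listed transcript, ENST00000421459, which GENCODE 29 classes as a retained intron, stood at 1.51 and 10.7 TPM in the controls and 4.37 and 1.23 TPM in the shPHF8 libraries, so its groups overlapped. The stacked bars of transcript TPM show the exchange.

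**Figure D2:**
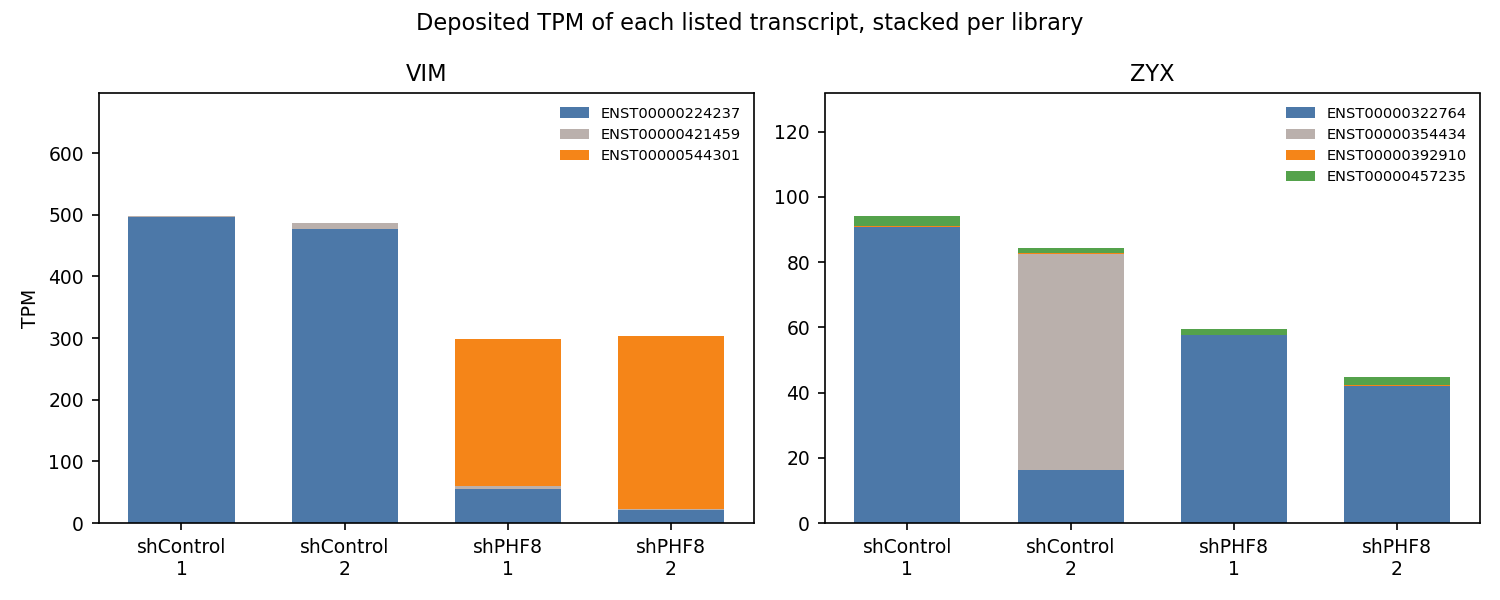
Bars stack the deposited TPM of every listed VIM (left) and ZYX (right) transcript in each library. For VIM the colour differs between groups, with ENST00000544301 at 0 in both shControl bars; for ZYX the odd bar is shControl replicate 2, where ENST00000354434 holds 66.0 TPM.

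Both VIM transcripts encode the same protein-coding stretch. In GENCODE 29, on GRCh38 and matched by identifier without version, they share 1867 exonic bases, including all 1398 coding bases. They differ at the 5′ end: ENST00000544301 starts 1019 bases further upstream with a non-coding first exon of 266 bases, then skips an intron of 751 bases and enters the exon in which ENST00000224237 starts. Apart from that exon, 2 bases at the second exon's edge and 1 base at the 3′ end separate them. Reads from the shared bases cannot assign RNA to either transcript, and the sources used here do not give how the deposited values divided them. The antisense gene VIM-AS1 lies across the upstream part of VIM, with 976 exonic bases of ENST00000544301 inside its span; neither it nor a smaller antisense gene, AL133415.1, has a row in the table, and strandedness is not stated, so antisense reads cannot be told apart there.

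**Figure D3:**
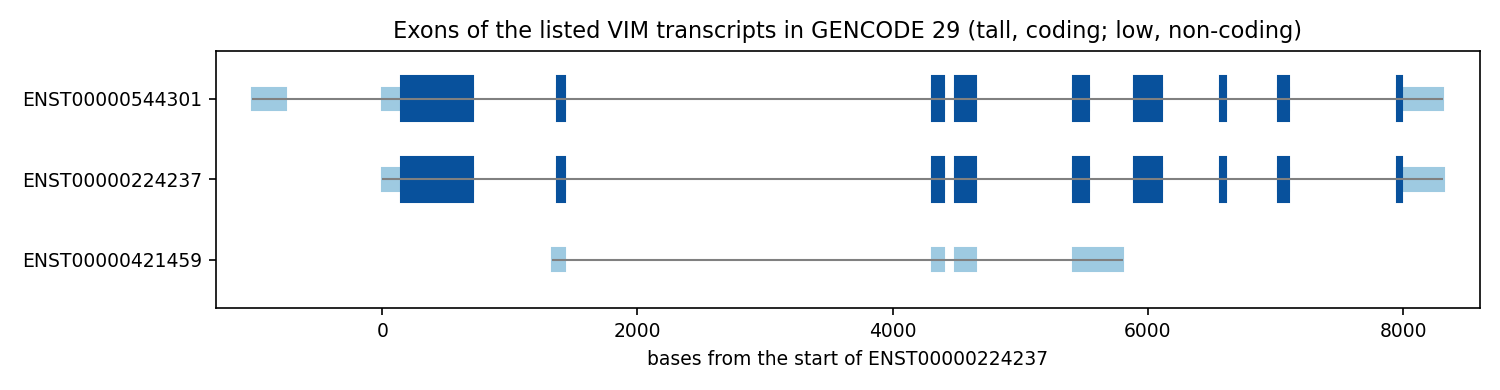
Exons of the 3 listed VIM transcripts, drawn to scale against bases from the start of ENST00000224237; tall blocks are coding and low blocks non-coding. ENST00000544301 adds an upstream non-coding exon that starts 1019 bases before the start of ENST00000224237, and the coding blocks of both are the same.

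RefSeq places the VIM start 18 bases upstream of the start of ENST00000544301 and 1037 bases upstream of that of ENST00000224237. The 250 bases before the RefSeq start (GRCh38.p14, plus strand, chr10:17227991-17228240) are therefore the sequence next to the first exon of ENST00000544301. They are shown because that transcript was credited with TPM in the knockdown libraries and not in the controls. Use of that exon was not measured. Capitals mark the letters GGGCGG, a GC box, the only such match on either strand.

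VIM upstream sequence: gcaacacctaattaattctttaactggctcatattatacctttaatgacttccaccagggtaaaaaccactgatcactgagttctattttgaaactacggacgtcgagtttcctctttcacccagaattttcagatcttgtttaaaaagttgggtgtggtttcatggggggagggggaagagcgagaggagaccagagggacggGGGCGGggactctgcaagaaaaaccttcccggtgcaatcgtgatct

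The GC box begins 46 bases before the start, and 42.6% of the 35116 promoter windows of the same length hold at least 1 match on either strand. The window contained no match to the letters TATAAA on either strand, which 10.7% of windows hold. It had no match to CCAAT, the core letters of the motif of that name, which 32.0% hold. Nor did it hold, on either strand, the letters TGANTCA, an AP-1 motif in which N is any base, present in 6.57%, or the CArG box bound by SRF, present in 1.16%. Its GC content was 46% and it held 8 CG pairs. In the same table the ZYX window held 5 GC boxes, 21 CG pairs and 74.8% GC, and likewise none of the other 4 motifs. LGALS1 and COL1A2 have no entry there.

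How common such an exchange is was read from all transcripts. Of 32551 transcripts, 2 (0.00614%) were listed at 0 in both controls and at 100 TPM or more in both knockdown libraries, and ENST00000544301 was among them. In the other direction there were also 2 (0.00614%). Within a group, 14 transcripts stood at 0 in 1 control and at 100 TPM or more in the other, and 16 did so between the knockdown libraries. The counts within a group need 1 library on each side and those between groups need 2, so they cannot be compared in number.

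Transcript shares give the same picture per gene. For each of 6188 genes with more than 1 transcript and at least 10 TPM in every library, the distance between 2 libraries is the percentage of the gene's TPM that would have to move between transcripts to match. For VIM it was 79.8 to 92.5 points between a control and a knockdown library, against 1.89 points between the controls and 12.6 points between the knockdown libraries. The median gene differed by 10.3 points between the controls, 10.0 points between the knockdown libraries and 10.9 to 11.3 points between groups. VIM ranked 13 of 6188 by its smallest distance between groups. A distance of at least 50 points in all 4 comparisons between groups was seen in 90 genes (1.45%), and 940 genes had one that large within a group. The 90 had to differ in all 4 comparisons and the 940 in any 1 within a group, so these counts cannot be compared. The 100 TPM and 50 point limits were set after the values were seen.

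**Figure D4:**
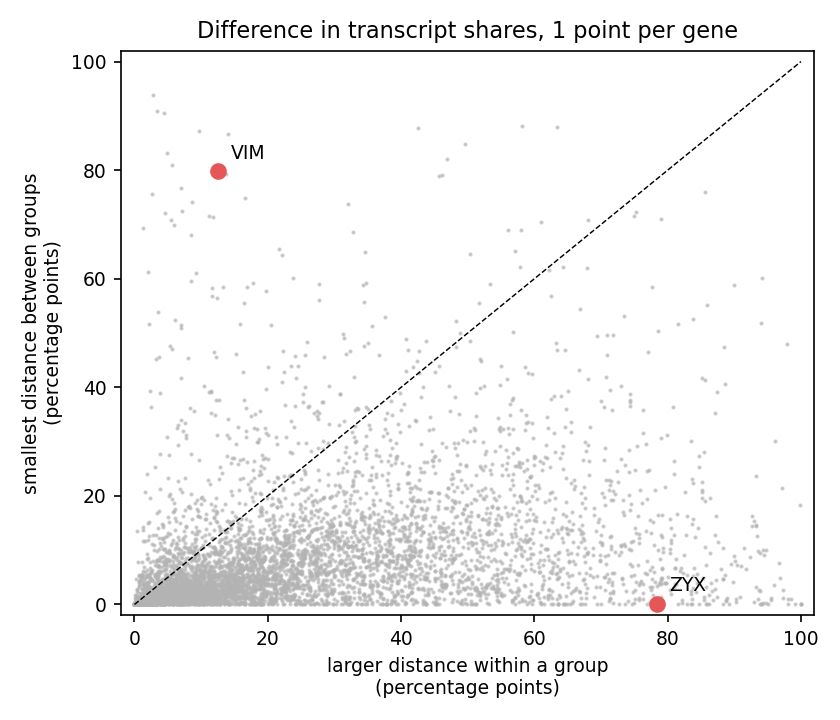
Each grey point is 1 of 6188 genes; the horizontal axis is the larger of the distances in transcript shares within a group and the vertical axis the smallest of the 4 distances between groups, both in percentage points, with equality dashed. VIM sits high on the left (12.6 within, 79.8 between) and ZYX low on the right (78.4 within, 0.0882 between).

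Because ENST00000544301 is longer, at 2135 against 1868 bases, the same number of fragments gives fewer TPM when credited to it. Weighted by transcript length, VIM made up 433 and 427 units per 1000000 of the weighted total in the controls and 288 and 295 such units in the knockdown libraries. The knockdown level was then 67.8% of the control level, compared with 61.2% in TPM. VIM was lower in both knockdown libraries on either scale. This weighting was chosen after the data were seen.

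LGALS1 (ENSG00000100097) has a single listed transcript, ENST00000215909, with 4 exons and 560 bases in GENCODE 29. It stood at 386 and 439 TPM in the controls and 261 and 258 TPM in the shPHF8 libraries. The controls differed from each other by more than the knockdown libraries did, and the groups did not overlap. The means were 413 ± 37.6 and 259 ± 2.00 TPM (SD, n = 2), so the knockdown level was 62.8% of the control level, a log2 difference of -0.67. With 1 transcript listed, the deposited values show no division between isoforms. Whether isoforms without a row were considered is not given. Galectin-1 and vimentin were both abundant: in the controls LGALS1 ranked 330 and 282 and VIM 251 and 249 among 11213 gene names, and in the knockdown libraries LGALS1 ranked 569 and 573 and VIM 464 and 461.

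COL1A2 (ENSG00000164692) also has 1 listed transcript, ENST00000297268, with 52 exons and 5411 bases. It was at 9.37 and 11.6 TPM in the controls against 1.79 and 1.65 TPM in the knockdown libraries. This was the lowest level and the largest relative difference of the 4 genes. The means were 10.5 ± 1.57 and 1.72 ± 0.0987 TPM (SD, n = 2), which is 6.09-fold lower, with a log2 difference of -2.07 that understates the change at so low a level and reached -2.53 with a pseudocount of 0.1. Its rank went from 8533 and 8084 in the controls to 10419 and 10457 in the knockdown libraries. The partner chain COL1A1 was at 0.505 and 1.42 TPM in the controls and 1.63 and 0.866 TPM in the shPHF8 libraries. The chain genes of type I collagen thus differed in level in the controls, and COL1A1 overlapped between the groups.

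ZYX (ENSG00000159840) stood at 94.1 and 84.4 TPM in the controls and 59.5 and 44.7 TPM in the shPHF8 libraries. The groups did not overlap, but the knockdown libraries were further apart than for the other 3 genes relative to their mean. The means were 89.2 ± 6.86 and 52.1 ± 10.4 TPM (SD, n = 2), which puts the knockdown level at 58.4% of the control level and the log2 difference at -0.78. That difference was -0.58 without shPHF8 replicate 2 and -0.98 without shPHF8 replicate 1. In GENCODE 29, 534 exonic bases of ZYX lie within the span of EPHA1 on the opposite strand, and reads there cannot be told apart without strand.

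Among the 4 listed ZYX transcripts the odd library was a control. The transcript ENST00000322764 held 96.6% of ZYX in shControl replicate 1 and 96.7% and 94.1% in the knockdown libraries, and 19.4% in shControl replicate 2. There ENST00000354434 took 78.3%, or 66.0 TPM, and it was listed at 0 in the other 3 libraries. Unlike VIM, ZYX transcript shares therefore did not separate by group. ENST00000322764 alone overlapped between the groups, at 90.9 and 16.4 TPM in the controls and 57.5 and 42.1 TPM in the knockdown libraries. The short transcript ENST00000457235 stood at 1.57 to 2.91 TPM. ENST00000392910 was lower in both knockdown libraries but near 0 throughout, at 0.264 and 0.361 TPM in the controls and 0.117 and 0.163 TPM in the knockdown libraries. Apart from this minor transcript, the separation of ZYX by group thus rests on the sum over transcripts.

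ENST00000354434 starts 495 bases further downstream and lacks exon 4 of ENST00000322764, which is wholly coding. Their coding lengths are 1620 and 1716 bases, so that exon of 93 bases is not the only coding difference between them. That exon is shown because it separates the form credited in shControl replicate 2 from the form credited in the other libraries. It covers 93 bases, or 31 codons, at chr7:143382593-143382685 (plus strand, GENCODE 29 on GRCh38), and is written in lower case throughout.

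ZYX exon 4: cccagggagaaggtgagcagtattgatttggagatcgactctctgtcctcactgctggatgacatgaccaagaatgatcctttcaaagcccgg

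VIM, LGALS1 and ZYX stood in similar proportions to each other in all 4 libraries. The ratio of VIM to LGALS1 was 1.29 and 1.11 in the controls and 1.15 and 1.18 in the knockdown libraries, and that of VIM to ZYX was 5.29 and 5.77 against 5.03 and 6.78. Neither ratio separated the groups. The ratio of VIM to COL1A2 was 53.1 and 42.0 in the controls and 167 and 184 in the knockdown libraries, so COL1A2 was lower relative to vimentin in both knockdown libraries. These ratios describe 2 libraries a group and share the values given above.

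The genes whose profiles lay closest were found by Euclidean distance between centred log2(TPM + 1) values over the 4 libraries, among the 8453 genes averaging 10 TPM or more. For VIM they were ARPC1A, GYPE and EFHD2, at distances of 0.0153, 0.0182 and 0.0215. For LGALS1 they were PMP22, KPNA3 and LAPTM4A, the first of them at 0.0364. For COL1A2 they were SPCS1, DLK1 and MPV17L2, at 0.0788, 0.0894 and 0.328, and for ZYX they were IDS, PCYOX1L and ANKRD16, at 0.0399, 0.0840 and 0.0866. ARPC1A, for example, stood at 152 and 148 TPM in the controls and 91.6 and 91.6 TPM in the shPHF8 libraries. With 4 libraries such closeness is a description of these samples.

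Around the 4 genes, 8 lists of related genes (4 by family and partners, 4 by wider pathway) and 2 further ones given at the end held 179 tested genes besides them. Of these 179, limma with Benjamini-Hochberg adjustment called 0 higher and 0 lower over all genes. Counts below are therefore of genes with both knockdown libraries on 1 side of both controls, to be read against 26.0% higher and 29.3% lower over all genes. The median log2 difference of all genes was -0.02. Values are mean TPM ± SD over 2 libraries.

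The other intermediate filament and linker genes went both ways. Of 28 besides VIM, the table lists 14, and 7 were higher and 7 lower in both knockdown libraries, with a median log2 difference of -0.0043 that ran from -0.06 to 0.032 when 1 library was left out and was 0.011 under median-of-ratios scaling and 0.026 under quantile normalization. The keratin KRT8, a filament protein of simple epithelia, was at 287 ± 26.3 and 171 ± 0.613 TPM (log2 difference -0.74 ± 0.09 SE, limma Benjamini-Hochberg adjusted p = 0.0703). KRT10, a keratin of differentiating epidermis, was at 171 ± 31.1 and 125 ± 5.63 TPM. The other listed keratins, KRT18 and KRT19, were also lower in both knockdown libraries. KRT18 was at 236 ± 30.2 and 205 ± 0.270 TPM and KRT19 at 194 ± 44.3 and 135 ± 7.79 TPM. The plakin EPPK1 was at 11.2 ± 0.0679 and 6.13 ± 0.382 TPM. The neurofilament heavy chain NEFH was on the other side, at 12.9 ± 3.06 and 29.6 ± 1.18 TPM. Desmin (DES), the muscle filament protein closest to vimentin in kind, was at 8.61 ± 0.124 and 7.56 ± 0.408 TPM, and nestin (NES), which co-assembles with vimentin, was at 7.98 ± 0.367 and 10.0 ± 0.0983 TPM.

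Lamins, the intermediate filament proteins of the nucleus, were above both controls in both knockdown libraries, with none passing the test. LMNA was at 88.1 ± 24.8 and 116 ± 5.45 TPM and LMNB2 at 129 ± 4.04 and 144 ± 0.616 TPM. LMNB1 was at 8.87 and 8.48 TPM in the controls and 162 and 16.8 TPM in the shPHF8 libraries, so its mean there rests on shPHF8 replicate 1. The lamin B receptor LBR was at 323 and 282 TPM in shControl and at 334 and 340.5 TPM in shPHF8. The linkers PLEC and DST, plakins that tie filaments to adhesion sites, were at 61.2 ± 1.28 and 46.0 ± 11.4 TPM and at 20.6 ± 0.677 and 23.7 ± 1.93 TPM.

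Of 15 kinases and phosphatase subunits that act on vimentin, 13 were tested, and 3 were higher and 2 lower in both knockdown libraries. The mitotic kinase AURKB was at 63.5 ± 3.15 and 47.9 ± 0.146 TPM and the cytoskeletal kinase ROCK2 at 42.7 ± 3.74 and 33.5 ± 1.79 TPM. Its relative ROCK1 was at 29.9 ± 9.21 and 45.2 ± 0.749 TPM, and PPP2R1A, a scaffold subunit of phosphatase PP2A, was at 61.4 ± 4.75 and 89.4 ± 6.36 TPM. The median log2 difference of this list was 0.06, and -0.0073 to 0.037 with 1 library left out.

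The other listed galectins lay on both sides of their control levels. LGALS8 was at 50.8 ± 6.27 and 62.9 ± 0.575 TPM, LGALS3 was at 2.31 and 0 TPM in the controls and 3.36 and 3.53 TPM in the knockdown libraries, and LGALS12 was at 5.02 ± 3.51 and 2.65 ± 0.0792 TPM. LGALS3BP, a secreted galectin ligand, was at 13.1 ± 6.03 and 5.26 ± 0.238 TPM. Of 25 galectins and galectin-1 ligands besides LGALS1, 13 were tested, and 4 were higher and 4 lower in both knockdown libraries, with a median log2 difference of -0.02 (-0.03 to 0.07 with 1 library left out).

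Several glycoproteins known to bind galectin-1 stood on either side. The leukocyte phosphatase CD45 (PTPRC) was at 190 ± 28.1 and 90.3 ± 1.25 TPM, with a log2 difference of -1.05 ± 0.13 SE and a limma Benjamini-Hochberg adjusted p of 0.0703. The lysosomal membrane protein LAMP2 was at 142 ± 8.70 and 99.3 ± 1.10 TPM, and fibronectin (FN1), a matrix protein, at 21.2 ± 6.11 and 7.32 ± 3.36 TPM. Integrin beta 1 (ITGB1) was on the other side, at 251 ± 21.4 and 371 ± 8.26 TPM, with a limma Benjamini-Hochberg adjusted p of 0.0877. None of these passed over all genes.

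Collagen chains other than COL1A2 were few and mostly low. Of 27, the table lists 8, and 0 were higher and 3 lower in both knockdown libraries. Those 3 were COL9A2, a cartilage chain, at 0.845 and 3.42 TPM in shControl and listed at 0 in both shPHF8 libraries, the basement membrane chain COL15A1, at 9.36 ± 0.453 and 7.97 ± 0.340 TPM, and COL6A3, a microfibril chain, at 1.46 and 1.55 TPM in shControl and 1.09 and 1.23 TPM in shPHF8. COL18A1, the most abundant chain, was at 46.9 ± 9.74 and 51.1 ± 5.00 TPM, and COL4A2, COL4A5 and COL6A1 lay between 1.16 and 3.91 TPM in every library. The median log2 difference was -0.12, but 0.08 under quantile normalization and 0.09 without shControl replicate 2.

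Enzymes and chaperones that mature and export procollagen went both ways. Of 33, 23 were tested, and 8 were higher and 7 lower in both knockdown libraries, with a median log2 difference of 0.08 (-0.06 to 0.13 with 1 library left out). CRTAP, part of the prolyl 3-hydroxylation complex, was at 71.3 ± 4.95 and 46.6 ± 1.37 TPM, and PCOLCE, which enhances cleavage of the procollagen C-propeptide, was at 17.7 ± 0.683 and 6.26 ± 2.58 TPM. ADAMTS3, a procollagen N-proteinase, was at 26.8 ± 1.37 and 40.0 ± 0.688 TPM, and COLGALT1, which adds galactose to collagen hydroxylysine, was at 128 ± 8.01 and 166 ± 7.64 TPM. The smallest limma Benjamini-Hochberg adjusted p in this list was 0.0974.

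The close relatives of zyxin differed little in mean between the groups. TRIP6 was at 83.7 ± 4.13 and 88.2 ± 1.05 TPM, LIMD1 at 23.8 ± 1.32 and 23.4 ± 0.846 TPM, and AJUBA at 9.79 ± 1.54 and 8.33 ± 0.572 TPM. Their log2 differences were 0.08 ± 0.09, -0.02 ± 0.12 and -0.20 ± 0.19 (SE). The test of a difference between ZYX and its relatives was not made, since ZYX was chosen on this comparison.

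Of 54 zyxin family and focal adhesion genes besides ZYX, 38 were tested, and 14 were higher and 7 lower in both knockdown libraries, with a median log2 difference of 0.06 (0.016 to 0.068 with 1 library left out). PDLIM7, a PDZ and LIM protein of the actin cytoskeleton, had the smallest p, at 79.7 ± 7.20 and 31.5 ± 1.16 TPM with a log2 difference of -1.31 ± 0.11 SE (limma Benjamini-Hochberg adjusted p = 0.0634). RSU1, a component of the ILK-PINCH-parvin complex, was at 21.8 ± 0.185 and 12.9 ± 0.808 TPM. ITGB1, given above, and GIT1, an adaptor for ARF GTPase signalling at adhesions, at 10.6 ± 0.108 and 18.7 ± 1.82 TPM, were on the other side.

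**Figure D5:**
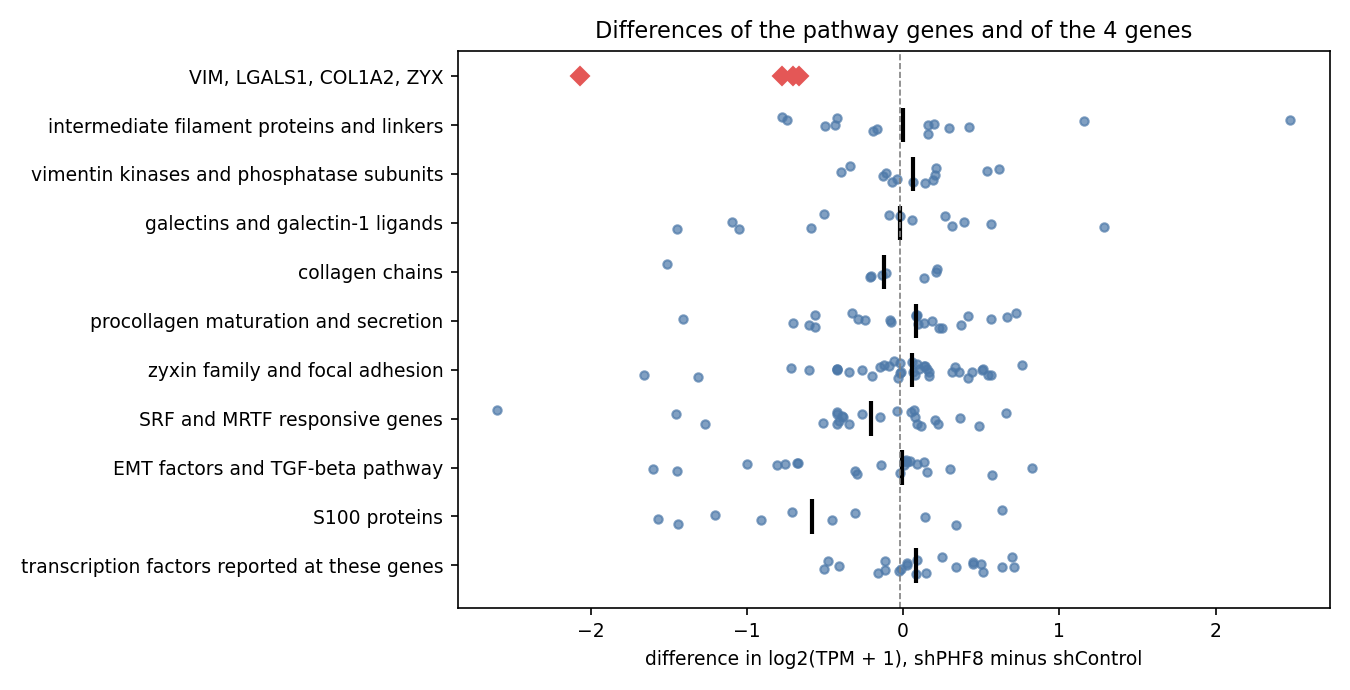
Points are tested genes of each list, placed by their difference in log2(TPM + 1), shPHF8 minus shControl; black bars are list medians, the dashed line the median of all genes (-0.02) and red diamonds the 4 genes. Most lists spread on both sides of 0, and among the 10 lists drawn the S100 list, which includes the binding protein S100PBP, has the lowest median (-0.58).

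Genes responsive to SRF and its actin-sensing cofactors, a group to which ZYX itself is usually assigned, lay on both sides of their control levels. None passed the test. The list also holds SRF and the cofactors MKL1 and MKL2 themselves, with MKL1 among the lower genes counted below and MKL2 among the higher. Of 30 besides ZYX, 24 were tested, and 4 were higher and 8 lower in both knockdown libraries, with a median log2 difference of -0.20 that was -0.10 without shControl replicate 1. The tropomyosin TPM4, a partner of actin filaments, was at 193 ± 26.1 and 31.0 ± 1.69 TPM, and TAGLN2, an actin-binding transgelin, at 471 ± 6.39 and 393 ± 2.21 TPM. EGR1, an immediate early transcription factor, was at 292 ± 20.3 and 409 ± 6.27 TPM, and the matricellular protein CYR61 at 9.19 ± 0.830 and 15.1 ± 1.97 TPM. TPM4 had the smallest limma Benjamini-Hochberg adjusted p, 0.0554, and was called under quantile normalization.

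Factors of epithelial-mesenchymal transition and TGF-beta signalling, for which vimentin is a usual marker, gave 3 genes higher and 9 lower in both knockdown libraries of 22 tested from 35. The repressor SNAI1 was at 24.7 ± 1.85 and 13.7 ± 0.0988 TPM (limma Benjamini-Hochberg adjusted p = 0.0956) and the membrane protease MMP14 at 5.63 ± 0.0804 and 2.39 ± 1.05 TPM. LTBP1, which binds latent TGF-beta, was at 22.7 ± 5.48 and 40.4 ± 2.12 TPM. The list's median log2 difference was -0.01, and -0.20 to -0.11 with 1 library left out.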

How the data were processed

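RNA-seq of 4 K562 libraries was used, 2 shControl and 2 shPHF8, grouped by the titles in the labels. The authors deposited TPM per transcript, per the file headers, and each column sums to 1000000; per the submitters' processing notes HISAT2 2.0.4, StringTie 1.2.3 and hg19 were used, and the sources used here give neither their roles nor an annotation or strandedness. A second deposited set of columns without a unit is treated as signal; within a library it was a constant multiple of TPM (3.16 to 3.19 in TPM per unit) and served no result. TPM keep no read number, so depth is unknown and no counting interval can be given.

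Transcript TPM were added up by gene name and put on the log2(TPM + 1) scale, which understates differences of low genes. The 10972 genes averaging 1 TPM or more were tested with limma 3.58.1 (trend, two-sided, Benjamini-Hochberg at 0.05) in R 4.3.3; all 4 members passed that minimum. The smallest two-sided p of an exact permutation test here is 0.333, so none was run. The fit was tested on simulated data with 200 of 10972 genes changed. It called 39.1% of those set to a log2 difference of 1 and 71% of those set to 2, so it misses many differences of such size. Of unchanged genes it called 0.0427%. Tables and figures used Python 3.11.15, pandas 2.3.3 and matplotlib 3.10.9.

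Members, lists and alternatives were chosen with earlier results of these data known. Named were the members, PHF8, the 4 genes per list with the smallest p and the listed members of the small families. So were the 3 nearest profiles per member. KRT18, KRT19 and the marker genes NFE2 and HBG1 were added after the values were seen. LMNB1's dependence on 1 library was noticed from its values. Transcript structures come from GENCODE 29 and promoter windows from RefSeq, both on GRCh38, not the build of the files; 2 members matched the promoter table, and of 32551 transcripts 32329 had a length there. Of the lymphocyte marker list only CD3D is reported here.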

Additional observations from a re-analysis of the deposited data

How the results depend on the processing

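Weighted by transcript length, the log2 difference was -0.56 for VIM and -2.38 for COL1A2, and COL1A2 was at -2.53 with a pseudocount of 0.1. With 1 library left out, the difference ran from -0.72 to -0.69 for VIM, -0.76 to -0.57 for LGALS1, -2.21 to -1.93 for COL1A2 and -0.98 to -0.58 for ZYX, all below 0; a lone library left in a group is then assumed to vary like the other group. After quantile normalization limma called 17 genes higher and 20 lower (Benjamini-Hochberg), and 2 of the lower ones, S100A11 and TPM4, were in the lists; every other setting called 0. List medians moved as follows. Filament genes reached 0.01107 with median-of-ratios scaling and 0.02575 with quantile normalization, and collagen chains 0.08018 with quantile normalization. With 1 library left out, medians ran from -0.05959 to 0.03219 for filament genes (-0.0043 with all libraries), -0.007346 to 0.03718 for vimentin kinases, -0.23 to 0.08725 for collagen chains, -0.05883 to 0.13 for procollagen maturation, 0.01588 to 0.06818 for focal adhesion, -0.17 to -0.10 for SRF genes, -0.20 to -0.11 for the TGF-beta list, -0.74 to -0.35 for the S100 list with S100PBP and 0.032 to 0.16 for transcription factors. For these, fewer samples entered the fit, and the cause was not tested further. Same-numbered libraries did not deviate together (r = -0.03 over 10972 genes), and with the replicate block the difference of VIM was -0.71 and 0 genes were called. Depth limits cannot be stated, since TPM keep no read number.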

Other observations

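The S100 list held 18 genes of S100 proteins, small calcium-binding proteins, and S100PBP, which encodes a binding partner of S100P and no S100 protein. Of the 18, 9 were tested, and 1 was higher and 5 lower in both shPHF8 libraries, against 26.0% and 29.3% of all genes. Their median log2 difference was -0.45, and -0.72 to -0.36 with 1 library left out; leaving S100PBP aside was decided after the data were seen. With S100PBP the median was -0.58, and -0.35 without shPHF8 replicate 1. S100A11 was at 446 and 453 TPM in shControl and 274 and 274 TPM in shPHF8, a relative difference near that of VIM (log2 difference -0.71 ± 0.06 SE, limma Benjamini-Hochberg adjusted p = 0.0560). S100A1 was at 22.3 ± 2.48 and 11.4 ± 0.599 TPM and S100P at 24.5 ± 7.39 and 7.56 ± 2.30 TPM (SD, n = 2). S100A9, also a granulocyte and monocyte marker, was at 1.65 and 2.17 TPM in shControl and 0.575 and 0 TPM in shPHF8. No S100 gene passed limma over all genes with the main settings.

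Of 26 transcription factors and coactivators reported at promoters of these genes, 22 were tested, and 9 were higher and 2 lower in both knockdown libraries. STAT3 was at 93.1 ± 9.88 and 144 ± 4.59 TPM, JUN at 48.2 ± 2.23 and 68.5 ± 1.56 TPM and NFKB1 at 20.2 ± 1.16 and 29.3 ± 2.45 TPM. RFX5, which can repress type I collagen genes, was at 50.1 ± 1.55 and 35.0 ± 0.989 TPM. The median log2 difference was 0.08, and 0.032 to 0.16 with 1 library left out. None of the 22 passed limma with Benjamini-Hochberg adjustment over all genes, and the smallest adjusted p was 0.0961.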
